A study of Mus musculus with 8 samples.

Results

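The genes described here encode the nuclear subunits of respiratory complexes II, III, IV and V, together with cytochrome c, the small carrier that links complexes III and IV. They were taken from the deposited count table as the protein-coding rows named Sdha to Sdhd, Uqcr, Cox4 to Cox8, Cyc1, Cycs or Atp5, which gave 50 of 54532 genes. A further 8 rows with matching names were pseudogenes and were left out. The RNA came from mouse stomach corpus, the acid-secreting region, in 4 control and 4 mutant animals that received no treatment. All 8 mice had a mixed C57BL/6 and CD1 background and were heterozygous for Six2-Cre, a recombinase driven by the promoter of the gene for the Six2 transcription factor. Controls were PKAcaR wt/wt, and mutants were PKAcaR fl/wt, with 1 floxed copy of an altered Prkaca, which encodes a catalytic subunit of protein kinase A. The animals' ages are not in the labels, and each library was 1 animal. The single comparison was of mutant with control animals.

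The respiratory chain lies in the inner mitochondrial membrane. Complex II (succinate dehydrogenase) passes electrons from succinate to ubiquinone, complex III (cytochrome bc1) passes them to cytochrome c, and complex IV (cytochrome c oxidase) passes them to oxygen, while complexes III and IV move protons across the membrane. Complex V, the ATP synthase, lets the protons flow back through a ring of c subunits and uses that flow to make ATP. Complex II is encoded wholly in the nucleus, whereas complexes III, IV and V each combine nuclear subunits with subunits made from mitochondrial DNA. Parietal cells of the corpus are packed with mitochondria, which supply the ATP for the acid pump.

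Library totals lay between 18184281 and 23814720 counted reads. Mutant 2 stood apart from the other libraries: its correlation with the other mutants over the tested genes was between 0.83 and 0.87, against 0.972 to 0.976 among mutants 1, 3 and 4. Forestomach squamous markers were present in control 3 and mutant 3 alone, with summed levels of 217 and 555 CPM, read counts scaled to library size, against at most 3.13 elsewhere. The parietal cell markers, 11 of 11 detected, summed to between 17696 and 21312 CPM in the controls and between 350 and 4098 in mutants, with 8 of 11 lower in the test below and none higher. The chief cell markers summed to 298414 to 533955 CPM in the controls and 996 to 41619 in mutants (3 of 7 lower), the pit cell markers to 39296 to 63921 and 4277 to 33275 (none of 4 called), and the mucous neck cell markers to 2387 to 6202 and 9105 to 26824 (4 of 4 higher). In bulk tissue, fewer cells of a type and less RNA per cell cannot be told apart, and the part of these shifts in cell type markers in the results on subunits was not tested.

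Stretches of promoter are shown for the genes in which paralogous subunits changed by unequal amounts, the c subunits of complex V and the Cox7a subunits of complex IV, and for 2 other genes with a motif match. They come from RefSeq on GRCm38.p6 and are printed on the strand of the gene. Except for Atp5g2 and Uqcrfs1, they run only up to the first base covered by an annotated exon. For Atp5g2 and Uqcrfs1, 30 bases around the match are shown, all covered by an annotated exon. Capitals mark a match to a motif: the NRF1 motif GCGCATGCG on either strand in Atp5g2 and Cycs, the motif of the estrogen-related receptors (ERR) TCAAGGTCA, here as its reverse complement, in Atp5g3, and the cyclic AMP response element (CRE) TGACGTCA in Uqcrfs1. In Atp5g2 the matches on both strands overlap in 1 palindromic site. The 3 stretches without capitals hold none of the 5 motifs searched.
Atp5g1, chr11:96075671-96075770, minus strand: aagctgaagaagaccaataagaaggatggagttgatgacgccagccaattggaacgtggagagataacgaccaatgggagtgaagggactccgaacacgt
Atp5g2, chr15:102671071-102671100, minus strand: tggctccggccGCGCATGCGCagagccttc
Atp5g3, chr2:73911327-73911426, minus strand: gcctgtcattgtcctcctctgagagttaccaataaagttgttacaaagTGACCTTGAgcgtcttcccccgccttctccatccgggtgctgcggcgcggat
Cox7a1, chr7:30184044-30184143, plus strand: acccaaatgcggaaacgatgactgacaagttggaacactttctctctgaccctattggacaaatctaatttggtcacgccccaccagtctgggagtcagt
Cox7a2, chr9:79759879-79759978, minus strand: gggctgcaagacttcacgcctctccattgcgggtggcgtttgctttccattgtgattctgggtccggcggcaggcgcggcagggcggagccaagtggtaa
Cycs, chr6:50566570-50566642, minus strand: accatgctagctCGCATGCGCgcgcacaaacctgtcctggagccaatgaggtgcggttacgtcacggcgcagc
Uqcrfs1, chr13:30545327-30545356, minus strand: cggcgtcgcgcTGACGTCAcaaaccctgcg

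A promoter of 300 bases, from 250 before to 50 after the RefSeq start, was matched for 37 of the 50 genes. The NRF1 motif, searched on both strands as were all others, was in 7 of the 37 (18.9%), against 2.61% of 17492 protein-coding genes. The 7 were Uqcr11, Uqcrc1, Cycs, Cox6a1, Atp5g2, Atp5k and Atp5l. In Uqcrc1 the match lay 30 bases past the start, and in Uqcr11 it crossed the start. The GABPA motif CCGGAAGT was in 4 of the 37 (10.8%, against 5.69%), namely Uqcr11, Uqcrh, Cox8a and Atp5h. In Cox8a the matches lay across the start and 31 bases past it. The ERR motif was in Atp5g3 and, 36 bases past the start, in Sdhd (5.41%, against 0.377%). The YY1 motif AAGATGGCG was in Atp5j and, 23 bases past the start, in Atp5j2 (5.41%, against 2.14%). The CRE was in Uqcrfs1 and, upstream of the stretch shown, in Cycs (5.41%, against 2.54%). None of the 5 motifs was found in 22 of the 37 promoters. Of the 30 matched promoters of genes called lower, 6 held the NRF1 motif, and of the 7 other matched promoters 1 did, that of Atp5g2. These matches describe the letters in the window and were not tied to binding in this tissue.

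Levels of different genes were compared as FPKM (the authors' read counts per length of gene and library size, as deposited). The library scaling in the FPKM was close to the TMM scaling described below and not to column totals. The subunits ranged widely in controls. Cox6a1 and Cox8a, small structural subunits of complex IV, stood highest at 957 ± 172 and 821 ± 119 FPKM (SD, n = 4, as for every mean ± SD below), followed by Cox6b1 at 536 ± 101 and the F1 subunit Atp5a1 at 475 ± 23.3. Neighbours in this order mostly did not differ beyond their spread: Atp5a1, Cox4i1 and Atp5b lay at 475 ± 23.3, 470 ± 87.3 and 470 ± 32.9. Of the tested subunits, coupling factor B (Atp5s), at 5.93 ± 1.19, and the isoforms Cox4i2 and Cox6b2, at 2.34 ± 0.943 and 1.59 ± 0.279, were lowest. Summed over all 50 genes, FPKM lay between 7814 and 10591 in controls and between 2461 and 4705 in mutants. The gene length behind the FPKM counts every annotated exon and was a median of 1.64 times that of the principal transcript. It was 11.8 times for Atp5l, 8.24 for Atp5g1 and 7.09 for Cox6c, so the FPKM of these 3 genes are low for their transcripts. Among the highest genes it was 0.991 times for Cox8a, 1.23 for Cox6a1, 2.08 for Cox4i1 and 2.21 for Atp5b. The order above therefore holds for the deposited lengths only.

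**Figure D1:**
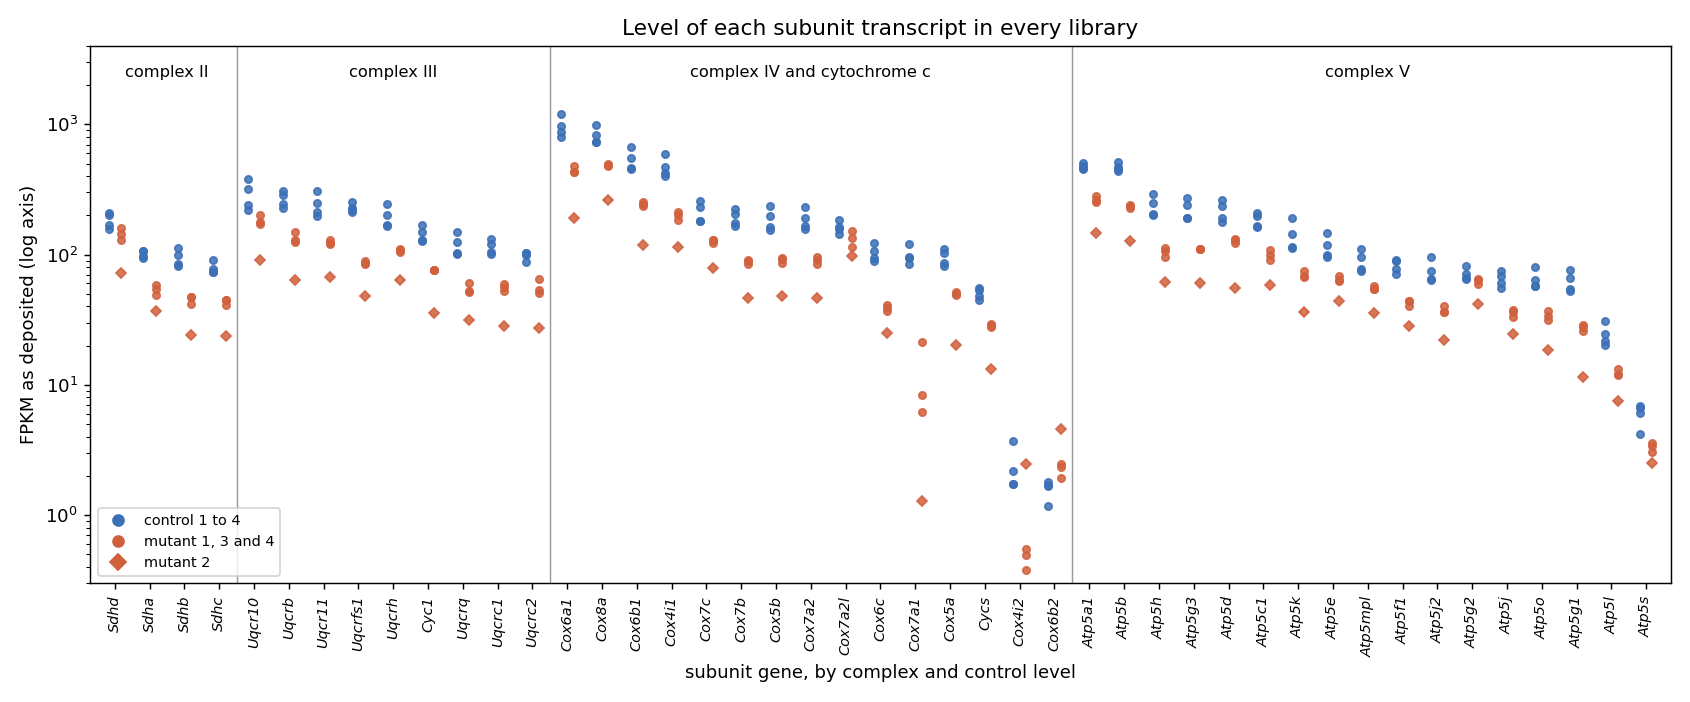
FPKM as deposited (log axis) of the 45 tested subunits in each library, grouped by complex and ordered by control level. Circles are controls 1 to 4 (blue) and mutants 1, 3 and 4 (orange), and orange diamonds are mutant 2. In nearly every gene the mutants sit below the controls and mutant 2 sits lowest, and Cox7a1 shows the widest gap, 98.4 against 9.33 FPKM on average.

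Of the 45 subunits with enough reads to be tested, 39 were lower in mutants, none was higher and 6 were not called (quasi-likelihood test of edgeR, p adjusted after Benjamini-Hochberg over all 15862 genes tested, threshold 0.05). Among all tested genes, 10.8% were called lower and 9.39% higher. The median log2 fold change of the 45 subunits, mutant over control, was -1.13, against 0.07 for all tested genes, and 33 of 45 lay below -1, against 9.25% of all genes. In 40 of 45 every mutant lay below every control on the TMM scale described below, against 16.1% of all genes. In 1, Cox6b2, every mutant lay above, against 14.2%. By complex, 3 of 4 subunits were lower in complex II (median -1.03), 8 of 9 in complex III (median -1.14), 12 of 15 tested in complex IV with cytochrome c (median -1.23) and 16 of 17 tested in complex V (median -1.08). The nuclear subunits of complex I stood beside them at 35 of 37 lower, with a median of -1.12.

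The number of calls depended on how libraries were scaled. The main scaling used TMM factors, which were between 0.688 and 0.839 in controls and between 1.24 and 1.32 in mutants, while a few secretory genes took many of the control reads (10 genes held 38.8% to 50.8% of them, against 8.69% to 15.0% in mutants). When column totals served as library sizes, the median over all tested genes moved to 0.76 and that of the subunits to -0.44. The distance between them was -1.19 with TMM and -1.20 with totals. Changed library sizes shift every gene by nearly the same amount, so this distance is nearly fixed and is no check of the scaling. On that scale 41 of 45 subunits kept a log2 fold change below 0, the exceptions being Sdhd, Cox7a2l, Atp5g2 and Cox6b2. Calls then fell to 7 lower (Uqcrfs1, Uqcrq, Cox7a1, Cox6c, Cox4i1, Cox7b and Atp5h), against 4.56% of all genes, and 1 higher (Cox6b2), against 59.3%. With column totals every mutant lay below every control in 7 of 45 subunits, against 746 of all 15862 genes tested. In 1 subunit every mutant lay above, against 8556 of all genes tested. For the gene levels given below in CPM, overlap refers to the TMM scale. The share of all counted reads that came from the 50 genes was 0.908% to 1.40% in controls and 0.547% to 0.985% in mutants, ranges that overlap.

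**Figure D2:**
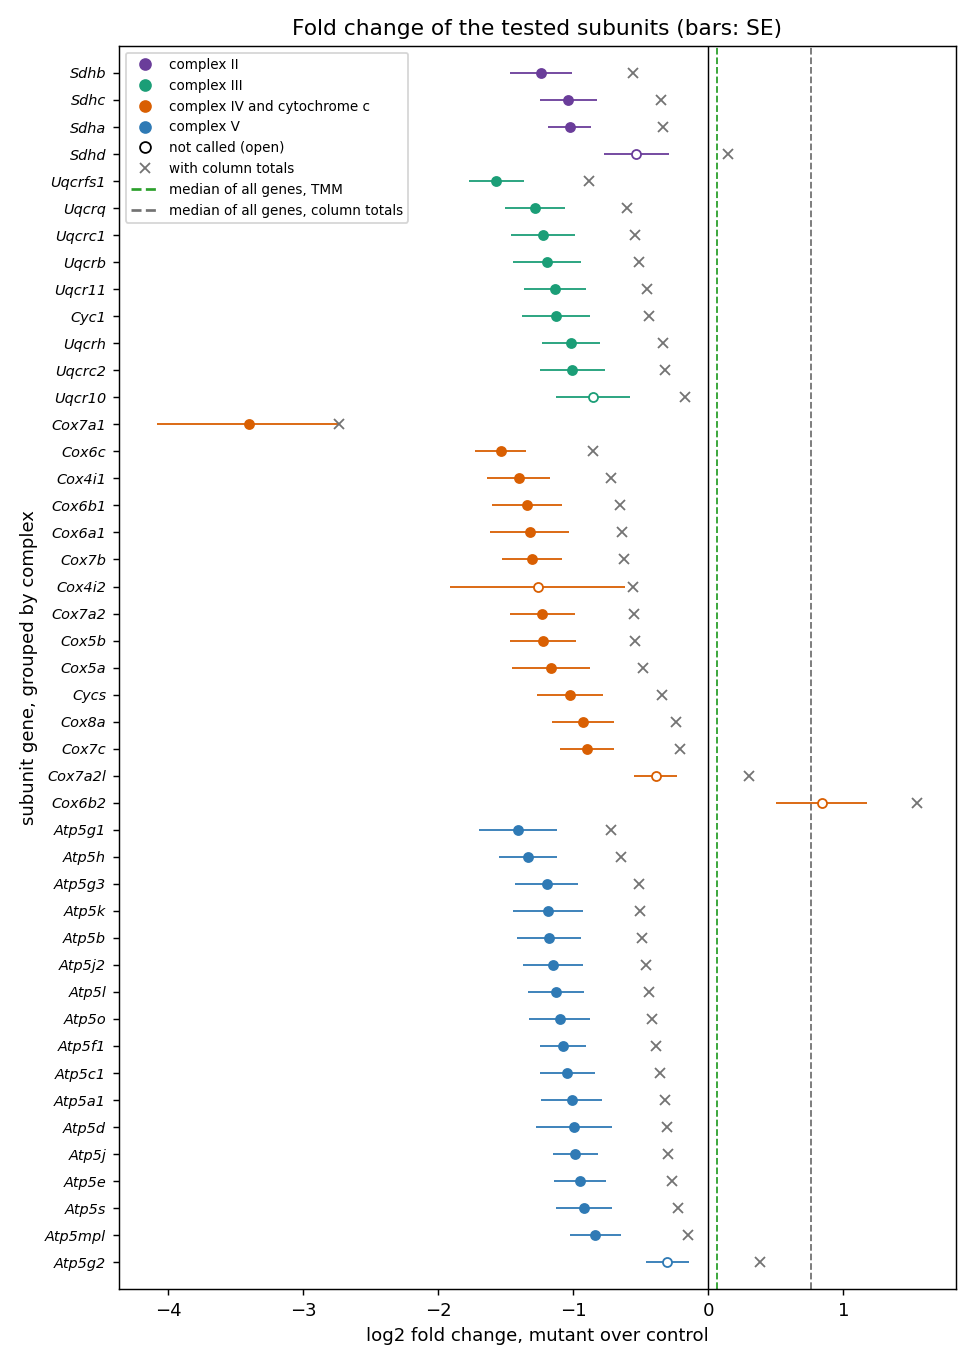
Log2 fold change, mutant over control, of the 45 tested subunits with TMM scaling (circles, bars are the SE, open where not called) and with column totals as library sizes (crosses). Dashed lines mark the median of all tested genes on each scale, 0.07 and 0.76. On both scales most subunits lie to the left of their line by a similar distance, which a change of library sizes leaves nearly fixed. Cox7a1 lies farthest left, at -3.40 with TMM.

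Complex II has 4 subunits. Sdha, the flavoprotein that binds succinate (chr13:74322254-74350280), was at 408, 392, 443 and 442 CPM in controls 1 to 4 and at 244, 154, 226 and 203 in mutants 1 to 4. The library sizes behind CPM here are those after TMM scaling. The groups did not overlap on that scale but did with column totals. The log2 fold change was -1.03 (SE 0.16, edgeR adjusted p = 0.00468). Sdhb, the iron-sulfur subunit, was at 214 ± 33.0 CPM in the controls and 90.5 ± 24.7 in mutants (log2 fold change -1.24, SE 0.23, edgeR adjusted p = 0.00899). Sdhc and Sdhd are the membrane anchors that hold ubiquinone, and they differed in call. Sdhc fell from 259 ± 27.0 to 126 ± 33.0 CPM (edgeR adjusted p = 0.0122). Sdhd was at 257, 250, 194 and 211 CPM in the controls and 199, 89.5, 179 and 162 in mutants. Mutant 1 lay within the control range, and Sdhd was not called (log2 fold change -0.53, SE 0.24, edgeR adjusted p = 0.148).

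In complex III, Uqcrfs1 had the smallest p. It encodes the Rieske iron-sulfur protein, which takes electrons from ubiquinol (chr13:30540308-30545362). Its levels were 348, 314, 290 and 304 CPM in the controls and 122, 66.0, 118 and 116 in mutants. The mutants lay far below the controls and mutant 2 was lowest. The log2 fold change was -1.57 (SE 0.20, edgeR adjusted p = 0.00233), a 2.97-fold lower level, and without mutant 2 it was -1.40. Cyc1, the cytochrome c1 that hands electrons on to cytochrome c, was at 313 ± 42.4 and 143 ± 43.7 CPM (edgeR adjusted p = 0.0177). The core proteins Uqcrc1 and Uqcrc2, which face the matrix, were lower too, with log2 fold changes of -1.23 and -1.01 (edgeR adjusted p = 0.0105 and 0.0224).

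The 5 small accessory subunits of complex III had log2 fold changes between -1.28 (Uqcrq, edgeR adjusted p = 0.00688) and -0.86 (Uqcr10). Uqcrb, which lies beside cytochrome b, was at 272, 253, 213 and 203 CPM in the controls and 110, 56.0, 131 and 113 in mutants (log2 fold change -1.20, SE 0.25, edgeR adjusted p = 0.0147). Uqcr10 was at 223, 190, 128 and 141 CPM in the controls and 119, 53.3, 104 and 101 in mutants. Its groups did not overlap, though mutant 1 came within 10 CPM of control 3, and it was not called (edgeR adjusted p = 0.0611, and 0.0180 without mutant 2).

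All 10 ubiquitous nuclear subunits of complex IV were lower, with log2 fold changes between -1.54 and -0.90 and no overlap between the groups. With column totals the groups stayed apart in 3 of the 10. Cox6c (chr15:35925886-35938246) was at 444, 386, 336 and 324 CPM in the controls and 141, 90.3, 148 and 134 in mutants. Every mutant was below 150 CPM and every control above 320, and the log2 fold change was -1.54 (SE 0.19, edgeR adjusted p = 0.00203). Cox4i1, the large subunit at which ATP is thought to act on the enzyme, was at 735 ± 136 CPM in the controls and 278 ± 69.2 in mutants (log2 fold change -1.40, SE 0.23, edgeR adjusted p = 0.00572). Cox7b, whose gene is on the X chromosome, was at 235 ± 31.3 CPM in the controls and 95 ± 25.8 in mutants (log2 fold change -1.31, SE 0.22, edgeR adjusted p = 0.00666). Cox6a1, the most abundant per length, was at 844, 687, 611 and 569 CPM in the controls and 306, 134, 340 and 304 in mutants, a log2 fold change of -1.32 (SE 0.29, edgeR adjusted p = 0.0175). Cox8a had one of the smallest falls of the 10, from 452 ± 65.2 CPM to 237 ± 63.1 (log2 fold change -0.93, edgeR adjusted p = 0.0246). Cytochrome c (Cycs) fell from 173 ± 17.6 CPM to 85 ± 26.5 (log2 fold change -1.02, edgeR adjusted p = 0.0230). Several subunit genes overlap genes on the opposite strand, among them Cox4i1, Cox6c, Atp5f1, Atp5d and Atp5j, whose neighbours averaged 242 to 711 reads per library, and Uqcrb, whose neighbour averaged 115, and whether counting used strand is not given in the sources used here. Some of the subunits' reads could belong to those neighbours.

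The tissue-specific isoforms of complex IV behaved in different ways. Cox7a1, the isoform known from heart, skeletal muscle and brown fat (chr7:30184144-30186078), had the most negative fold change of the 45 subunits. Its levels were 64.5, 51.1, 45.3 and 51.6 CPM in the controls and 3.34, 0.695, 11.5 and 4.54 in mutants, with 17 reads in mutant 2. No mutant came near the controls. The log2 fold change was -3.40 (SE 0.68, edgeR adjusted p = 0.0120), 10.6-fold lower, and it was -2.73 with column totals (adjusted p = 0.00795) and -3.05 without mutant 2 (adjusted p = 0.00186).

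Markers of other tissues moved beside Cox7a1. The smooth muscle markers, 8 of 8 lower, summed to 2968 to 3967 CPM in the controls and 299 to 874 in mutants. Of the 8 skeletal muscle markers 4 were tested and 1 was lower, Ckm, the muscle creatine kinase, with 64 to 92 reads in each control and 0, 5, 2 and 14 in mutants 1 to 4, and their sum was 49.9 to 78.6 CPM in the controls and 11.4 to 56.6 in mutants. Of 5 white fat markers 3 were tested and all 3 were lower, and the 5 summed to 88.1 to 195 CPM in the controls and 24.6 to 58.3 in mutants. Nearly all of the mutant sum was Fabp4, at 77.9 to 114 CPM in the controls and 24.2 to 58.2 in mutants. Cfd had 32 to 437 reads in controls and 0 in every mutant, and Car3 had 44 to 599 and 0 to 8. Adipoq, the adipocyte hormone gene, had 150, 42, 13 and 0 reads in controls and 0 in every mutant. Of 4 brown fat markers 2 were tested and 1 was higher, Dio2, which converts thyroid hormone. The 4 summed to 2.23 to 3.58 CPM in the controls and 3.28 to 39.7 in mutants. The 39.7 was in mutant 2, against 3.28 to 7.71 in the other mutants. Cidea, the other brown fat marker tested, had 23 to 33 reads in controls and 29 to 159 in mutants and was not called (log2 fold change 0.61). Ucp1 and Elovl3 were near or at 0, with 1 to 6 Ucp1 reads in every library and no Elovl3 read in any. The part of these tissues in the difference in Cox7a1 was not tested.

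Cox6b2, known as the testis isoform of the subunit Cox6b (chr7:4751792-4753094), was the tested subunit with a positive fold change. It was low throughout, at 2.01, 1.91, 1.85 and 1.32 CPM in the controls and 2.77, 5.15, 2.16 and 2.61 in mutants. All mutants lay above all controls, mutant 3 by little, and it was not called (log2 fold change 0.84, SE 0.34, edgeR adjusted p = 0.112). With column totals it was called higher (log2 fold change 1.55, edgeR adjusted p = 0.00604), a scale on which 59.3% of all genes were. Germ cell markers summed to at most 0.957 CPM in any library. Cox4i2, the isoform of Cox4 known from lung and smooth muscle, was at 2.95, 1.38, 1.72 and 1.38 CPM in the controls and 0.434, 1.96, 0.388 and 0.30 in mutants. Mutant 2 lay within the control range while the other 3 mutants lay below it, and the gene was not called (log2 fold change -1.26, SE 0.65, edgeR adjusted p = 0.193). Without mutant 2 it was lower (log2 fold change -2.29, edgeR adjusted p = 0.00207).

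The 4 other complex IV isoforms had too few reads to pass the filter of the edgeR test. Cox8b, the muscle and brown fat isoform of Cox8, had 2, 2, 8 and 2 reads in controls and none in mutants, where the floor of 3 counts per library is 0.10 to 0.129 CPM. DESeq2, run on unfiltered counts, called Cox8b lower (adjusted p = 0.0134), and edgeR with no filter did not. Cox6a2, the muscle isoform of Cox6a, had 3, 1, 1 and 0 reads in controls and 0, 8, 0 and 0 in mutants. Cox7b2 had 2 reads, both in control 3, and Cox8c had none. The remaining untested row was a second, longer gene model named Atp5o that overlaps Atp5o itself and held no reads. Cox7a2l, which encodes a factor that joins complexes III and IV into supercomplexes (chr17:83501919-83514333), was at 214, 184, 188 and 168 CPM in the controls and 176, 112, 155 and 132 in mutants. The groups overlapped at mutant 1, and it was not called (log2 fold change -0.39, SE 0.16, edgeR adjusted p = 0.117). With column totals its log2 fold change was 0.30 and it was again not called.

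In complex V all 5 subunits of the catalytic F1 head were lower, with log2 fold changes between -1.18 and -0.95. Atp5b, the catalytic beta subunit (chr10:128083273-128090391), was at 2199, 2024, 1871 and 1941 CPM in the controls and 1033, 540.3, 965 and 1011 in mutants. Mutants 1, 3 and 4 lay close together and mutant 2 well below them, and the log2 fold change was -1.18 (SE 0.24, edgeR adjusted p = 0.0116). Atp5a1, the alpha subunit, fell from 1502 ± 75.2 CPM to 745 ± 194 (log2 fold change -1.01, SE 0.23, edgeR adjusted p = 0.0175). The central stalk genes Atp5c1 (gamma), Atp5d (delta) and Atp5e (epsilon), counted here with F1, had log2 fold changes of -1.04, -0.99 and -0.95.

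The 4 tested genes of the peripheral stalk, which keeps the F1 head from turning, were lower as well. Atp5h had the most negative fold change among them, from 350 ± 63.1 CPM to 139 ± 32.9 (log2 fold change -1.33, SE 0.22, edgeR adjusted p = 0.00530). Atp5f1 fell from 340 ± 39.6 CPM to 161 ± 30.0 (log2 fold change -1.08, SE 0.17, edgeR adjusted p = 0.00494), and Atp5j, coupling factor 6, from 205 ± 28.0 to 104 ± 18.5 (log2 fold change -0.99, SE 0.17, edgeR adjusted p = 0.00633). The 4 small membrane subunits Atp5j2, Atp5k, Atp5l and Atp5mpl had log2 fold changes between -1.19 and -0.84, and all 4 were called lower. Atp5s, coupling factor B, fell from 12.2 ± 2.42 to 6.43 ± 0.979 CPM (edgeR adjusted p = 0.0183).

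The c subunit of the proton-driven ring is made from 3 genes, Atp5g1, Atp5g2 and Atp5g3, which are known to encode the same mature protein behind different import sequences. Atp5g1 (chr11:96068852-96075670) was at 377, 331, 267 and 262 CPM in the controls and 138, 57.2, 143 and 128 in mutants, a log2 fold change of -1.41 (SE 0.29, edgeR adjusted p = 0.0135). Atp5g3 (chr2:73908447-73911326) was at 598, 536, 420 and 420 CPM in the controls and 243, 132, 241 and 244 in mutants (log2 fold change -1.20, SE 0.23, edgeR adjusted p = 0.0107). Atp5g2 (chr15:102662864-102672352) differed from both. It was at 139, 120, 109 and 112 CPM in the controls and 108, 70.5, 101 and 110 in mutants, where mutant 4 lay within the control range, and it was not called (log2 fold change -0.30, SE 0.16, edgeR adjusted p = 0.208). With column totals its log2 fold change was 0.39, again not called.

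Ratios of paralogous subunits within a library do not depend on how libraries are scaled. They were tested in the 7 pairs in which both genes averaged at least 10 reads (exact two-sided permutation test, 4 against 4, 70 assignments, smallest possible p = 0.0286, adjusted over the 7 pairs). Atp5g2 reads were 23.2%, 22.4%, 26.0% and 26.8% of Atp5g3 reads in controls and 44.6%, 53.4%, 41.8% and 45% in mutants. The groups were well apart, and the log2 ratio was 0.91 higher in mutants (SE 0.10, exact permutation p = 0.0286, adjusted p = 0.0333). Of all reads of the 3 c-subunit genes, Atp5g2 made up 12.2% to 14.2% in controls and 20.7% to 27.1% in mutants. For Atp5g1 that share was 33.0% to 33.8% in controls and 22% to 29.6% in mutants, and for Atp5g3 it was 52.8% to 54.3% and 49.6% to 50.8%. The ratio of Atp5g1 to Atp5g2 thus moved from 233% to 276% in controls to 81.1% to 142% in mutants (log2 difference -1.16), and that of Atp5g1 to Atp5g3 from 61.9% to 63.5% to 43.3% to 59.5% (log2 difference -0.25), each with an exact permutation p of 0.0286 and an adjusted p of 0.0333.

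In complex IV, Cox7a1 reads were 28.1% to 32.9% of those of its ubiquitous counterpart Cox7a2 in controls and 3.91%, 1.62%, 12.6% and 5.68% in mutants 1 to 4. The log2 difference was -2.71 (SE 0.62, exact permutation p = 0.0286, adjusted p = 0.0333). Cox7a2l moved the other way against Cox7a2, from 97.1% to 126% in controls to 164% to 253% in mutants, a log2 difference of 0.86 (SE 0.17) with the same exact p and adjusted p. Cox6b2 made up 0.413% to 0.572% of Cox6b1 reads in controls and 1.61%, 6.15%, 1.21% and 1.57% in mutants, a log2 difference of 2.15 (SE 0.54), again with the same exact p and adjusted p. Cox4i2 against Cox4i1 did not separate the groups, at 0.192% to 0.322% in controls and 0.143%, 1.12%, 0.124% and 0.111% in mutants (log2 difference -0.19, SE 0.81, exact permutation p = 0.914). Mutant 2 alone was above the controls there, and the other 3 mutants were below.

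**Figure D3:**
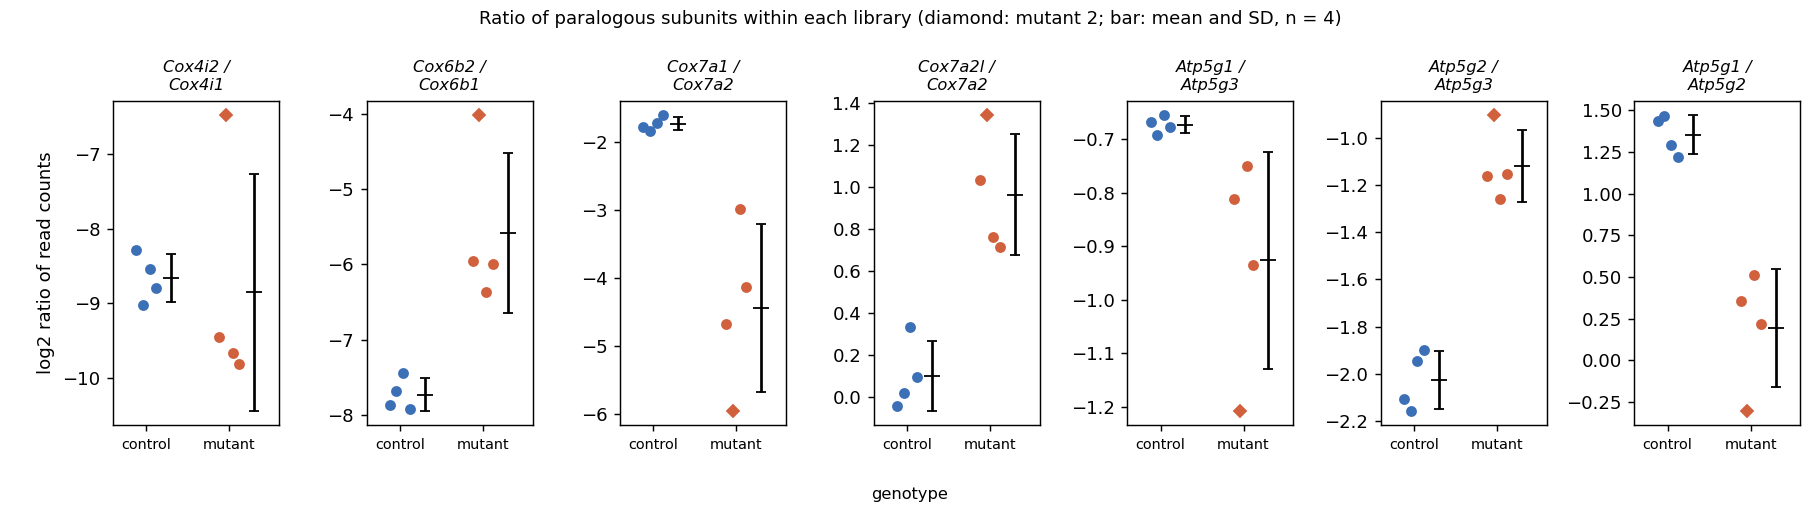
Log2 ratio of read counts of 7 pairs of paralogous subunits in each library (blue, control; orange, mutant; diamond, mutant 2; bar, mean and SD, n = 4; each panel has its own axis). In every pair except Cox4i2 over Cox4i1 the mutants lie on one side of the controls without overlap.

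The size of the difference also varied between animals. Mutant 2 was the lowest mutant in 43 of the 45 tested subunits and held a median of 0.544 times the mean of the other mutants, from 0.108 for Cox7a1 to 5.25 for Cox4i2. Its parietal marker sum of 350 CPM was also the lowest, against 2822 to 4098 in the other mutants. So were its sums of chief (996 CPM), pit (4277 CPM) and mucous neck markers (9105 CPM). Its smooth muscle sum of 670 CPM was not the lowest, and its white fat sum of 58.3 CPM was the highest of the mutants. Control 1 was the highest control in 42 of 45 subunits. It also had the highest white fat marker sum (195 CPM, against 88.1 to 107 in the other controls) and the highest smooth muscle sum. Its parietal sum of 19590 CPM was not the highest, against 17696, 20781 and 21312 in controls 2 to 4. The part of these cell types in the differences between animals was not tested. Without mutant 2, 41 subunits were lower (18.3% of all genes), among them all 39 that were lower with all libraries, and the median log2 fold change of the 45 was -0.95. Without control 1, 29 were lower (6.46% of all genes). Without both control 3 and mutant 3, the libraries with squamous markers, 24 were lower (5.14% of all genes), and the median of the 45 was -1.26.

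The factors that assemble these complexes were set beside the subunits from a list of 36 genes, of which 34 were tested. Of these 6 were lower (17.6%, against 10.8% of all genes) and none higher (against 9.39%). In 14 of the 34 every mutant lay below every control on the TMM scale, against 16.1% of all genes. For complex II none of 4 was called, and Sdhaf4 and Sdhaf2, which act on Sdha before it joins the complex, had log2 fold changes of -0.45 and -0.18 (edgeR adjusted p = 0.0721 and 0.255). For complex III 1 of 6 was lower, Uqcc1, needed for cytochrome b synthesis (49.2 ± 3.22 CPM to 30.3 ± 7.87, log2 fold change -0.70, edgeR adjusted p = 0.0396), and Uqcc2, its partner, was at -0.54 (edgeR adjusted p = 0.0513). For complex IV 3 of 20 tested were lower: Coa7 (log2 fold change -0.86, edgeR adjusted p = 0.0177), Coa3 (-0.83, adjusted p = 0.0288) and Pet100 (-0.72, adjusted p = 0.0363). Sco2 and Pet117 were at 0 reads in every library. For complex V 2 of 4 were lower, Tmem70, which helps build the c-ring (-0.66, edgeR adjusted p = 0.0125), and Atpaf2, a chaperone of the alpha subunit (-0.42, edgeR adjusted p = 0.0493). The median log2 fold change of the tested assembly factors was -0.35 in complex II, -0.54 in III, -0.36 in IV and -0.54 in V. The difference between subunits and assembly factors was not tested.

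**Figure D4:**
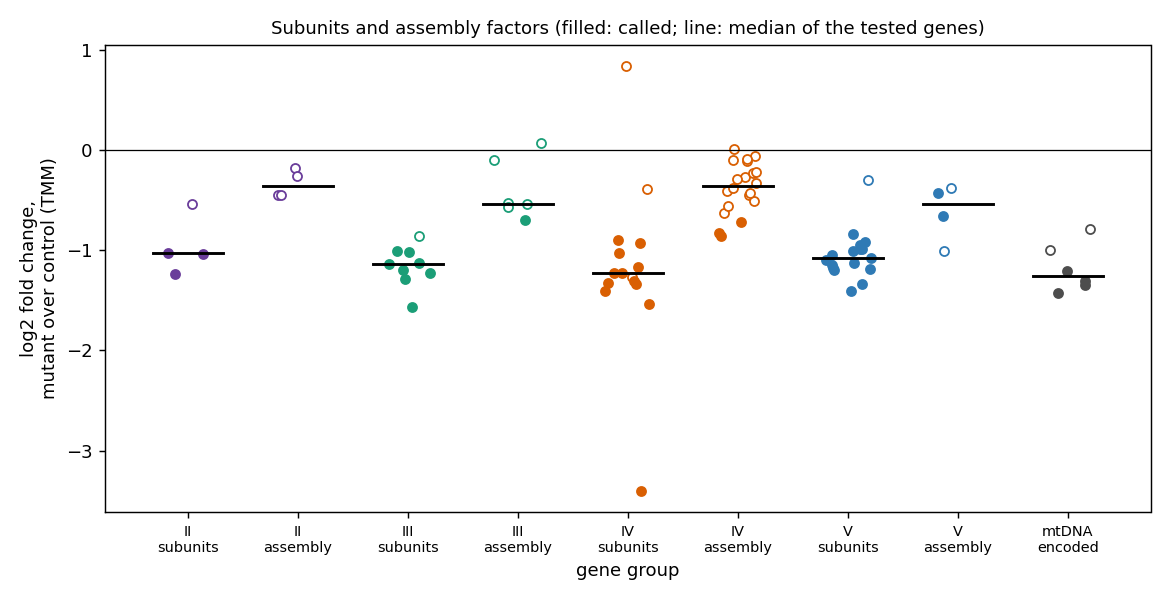
Log2 fold change, mutant over control, with TMM scaling for the subunits and the assembly factors of each complex and for the mitochondrially encoded subunits (points are tested genes, filled where called, lines are medians). The subunit medians lie between -1.23 and -1.03 and the assembly factor medians between -0.54 and -0.35.

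Complexes III to V also take subunits from mitochondrial DNA, and 4 of those 6 were lower, against 10.8% of all genes. Their median log2 fold change was -1.26 over the 6. mt-Co3 fell from 78.1 ± 4.63 CPM to 33.9 ± 6.71 (log2 fold change -1.20, SE 0.16, edgeR adjusted p = 0.00232), and mt-Co2 from 99.0 ± 10.2 to 36.8 ± 15.4 (log2 fold change -1.43, SE 0.29, edgeR adjusted p = 0.0123). mt-Cytb (8265 ± 563 CPM in the controls, 3237 ± 1166 in mutants) and mt-Atp6 were lower as well. mt-Co1 was at 15937 ± 1885 CPM in the controls and 8005 ± 3333 in mutants. It was not called (log2 fold change -0.99, edgeR adjusted p = 0.0832), and neither was mt-Atp8. The levels of mt-Co2, mt-Co3 and mt-Atp6 were far below those of mt-Co1 and mt-Cytb, and the reason was not tested. Of 12 regulators of mitochondrial genes, 4 were lower (33.3%, against 10.8% of all genes). One was the coactivator Ppargc1a (16.3 ± 0.792 CPM to 8.19 ± 1.70, log2 fold change -1.0, edgeR adjusted p = 0.00720). The others were the 3 ERR receptors Esrrb, Esrrg and Esrra, with log2 fold changes of -3.45, -3.23 and -0.66 (edgeR adjusted p = 0.0164, 0.0329 and 0.0471). Esrrg is also in the list of parietal cell markers. Nrf1, Gabpa and Yy1, whose motifs were searched above, had log2 fold changes of -0.02, 0.00 and 0.09 and were not called.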

How the data were processed

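The authors deposited 2 tables, one of raw counts per gene and one of FPKM. The submitters' processing notes list CASAVA, fastp, STAR 2.5 and featureCounts without saying what each did, and libraries were made from polyA RNA per the labels' protocols. Build and strand setting: not given in the sources used here. Of the 50 members, 48 had the same coordinates in GENCODE M21 (GRCm38). The scaling in the deposited FPKM was close to TMM, so they are no separate check of it. A control column named SCI was taken as SC1, and 0 columns were left unassigned.

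Counts were filtered with filterByExpr, scaled with TMM and tested with edgeR 4.0.16 (robust quasi-likelihood, R 4.3.3) over all genes. P-values were adjusted after Benjamini-Hochberg, threshold 0.05. The method was tested on simulated data. In those data a small set of genes changed in random directions, so they do not test the library scaling. Isoform ratios used log2 of counts plus 0.5. A floor of 3 counts was 0.179 to 0.198 CPM in controls and 0.10 to 0.129 in mutants and covers counting error only. No pair of libraries of a group agreed within sampling noise, so each was 1 replicate. Over the tested genes same-numbered libraries did not deviate together (correlations -0.0618 to 0.0688), so the numbers were not used to pair them.

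Members, lists and rules were chosen with earlier results of these data known. Named with values were, per complex, the 2 members with the highest mean FPKM and the 3 with the smallest p, the largest change in the rarer direction and the isoform pairs. From each list of assembly factors, mitochondrially encoded subunits and regulators the 2 genes with the smallest p were named. Markers of cell types and tissues were counted and summed, and single ones were named without that rule. These and other genes were named after their values were seen, the others mostly to account for every call. Alternatives were DESeq2 1.42.0 with its own filtering, limma-voom with sample weights and limma-trend (limma 3.58.1), the latter on the log2 of FPKM plus 1 or plus 0.1, RLE factors, column totals, other filters, a replicate block, and libraries left out.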

Additional observations from a re-analysis of the deposited data

Results flagged for a closer look

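Among 70 groups of 4 libraries checked for a library far from the other 3 (28 named subunits and the 7 ratios, in each genotype), 9 stood out. Chance gives about 1 in 20 for a single group. The groups come from the same animals and the ratios reuse the same genes, so the count of 9 cannot be set against that rate. In all 9 it was mutant 2 among the mutants. Its level was low for Atp5b (540.3 CPM), Atp5g3 (132 CPM), Cox6b1 (84.0 CPM), Cox7b (56.7 CPM), Cox8a (143 CPM) and Uqcrfs1 (66.0 CPM). It was high for Cox4i2 (1.96 CPM), for Cox4i2 as a percentage of Cox4i1 (1.12%) and for Cox6b2 as a percentage of Cox6b1 (6.15%).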

How the results depend on the processing

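The count of 39 subunits lower moved to 7 with column totals and to 24 without control 3 and mutant 3, and 1 was higher with column totals. It was 41 with DESeq2, whose 2 added calls were Uqcr10 and Cox8b (8.75% of 28398 genes; tool and filter changed together, and 48 subunits had a p), 43 with limma-voom with sample weights (19.3%; tool and weights changed together), 39 with RLE factors, with no filter, with the stricter filter and with either FPKM fit on filtered genes, and 36 with unfiltered FPKM (4.92%). Leaving out 1 library in turn gave 29 (without control 1) to 41 (without mutant 2). The replicate number as a block gave 29 (6.79% of all genes), with medians of -1.16 for the subunits and 0.03 for all genes. Over the tested genes same-numbered libraries did not deviate together, though control 3 and mutant 3 shared squamous markers. Why calls were lost with the block was not tested. For the 28 named subunits, 494 of 532 values under alternatives stayed on their side of the threshold, 30 passed out of it and 8 into it, and none reversed.

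Of all genes, 1719 were lower and 1489 higher. The lower count moved to 3066 with weighted limma-voom, 724 with column totals, 1077 with the replicate block and 823 without control 3 and mutant 3, and to between 1018 and 2953 with 1 library left out. The higher count moved to 2389 with DESeq2, 2602 with weighted limma-voom, 9412 with column totals, 747 with the replicate block, 587 without control 3 and mutant 3 and 827 with unfiltered FPKM, and to between 665 and 2447 with 1 library left out. The share of calls that were lower went from 53.6% to 7.14% with column totals, as the shift of the median of all genes does by construction; for the rest the cause was not tested.

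The 6 ratios that passed kept their sign with a prior count of 0.1 and with any 1 library left out. With that prior count they also kept their p. They did so on FPKM too, but that is no separate check. Gene lengths are the same in every library, so the differences were nearly fixed in advance. With 1 library left out the smallest possible exact p is 0.0571, and with pairs it is 0.125, so neither could pass. Log2 differences without 1 library ranged from 1.62 to 2.41 for Cox6b2 over Cox6b1, -3.19 to -2.20 for Cox7a1 over Cox7a2, 0.74 to 0.95 for Cox7a2l over Cox7a2, -0.31 to -0.16 for Atp5g1 over Atp5g3, 0.83 to 0.95 for Atp5g2 over Atp5g3 and -1.26 to -0.99 for Atp5g1 over Atp5g2. Under the replicate block they were 2.15, -2.71, 0.86, -0.25, 0.91 and -1.16. These equal the values without the block by construction, since the mean of paired differences is the difference of the means. The ratio of Cox4i2 to Cox4i1 ranged from -0.98 (without mutant 2) to 0.13. Subunits with under 10 reads a library are limited by depth.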
